A study of Mus musculus with 20 samples.

Results

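Forkhead transcription factors share a DNA-binding domain of the winged-helix type and are named Fox with a letter for the subfamily. The set described here holds every protein-coding gene of the NCBIM37 (mm9) mouse annotation whose symbol is Fox, a letter from a to s and a number, which gave 43 of 22367 protein-coding genes. Foxf1a, whose symbol ends in a further letter, was kept, and Foxl1, annotated as a pseudogene in this build, was not a member. Each gene was taken with 10 kb on either side, and the number of 5fC peaks and the bases under them were counted in that window. The rule uses the symbol and no measured value. The windows of 2 members overlapped, those of Foxd2 and Foxe3, which shared 3823 bases.

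5-Formylcytosine (5fC) was mapped by chemical pull-down in tissues of E11.5 mouse embryos, either wild-type (WT) or homozygous for a null allele of Tdg. The null allele lacks the catalytic part of TDG and carries neomycin resistance instead, in every tissue of a null embryo. Hindbrain was profiled in 4 WT and 4 null embryos, 1 of each genotype from litters A, O, Q and Z. Heart, liver and carcass (the rest of the embryo) came from another 2 WT and 2 null embryos. These are paired here as a (embryos i1 and i6) and b (i5 and i9), while the sample titles name the embryo and no litter. Of 20 libraries from 12 embryos, the null liver of pair b held 228 peaks against 101344 in the null liver of pair a, had no peak in any forkhead window and was set aside, as the study did, so that 19 libraries were used and null liver has 1 library. Values are given in the order A, O, Q and Z for hindbrain and a, b for the other tissues.

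5fC arises when TET enzymes oxidise 5-methylcytosine by way of 5-hydroxymethylcytosine. TDG, a DNA glycosylase, excises 5fC, and base excision repair then restores unmodified cytosine, so that embryos without TDG activity lack this route of 5fC removal, while 5fC may still be diluted when DNA is replicated. Forkhead factors act in nearly every tissue of the embryo. The Foxa factors open chromatin in endoderm, Foxc and Foxf factors pattern mesoderm and vessels, Foxb1 acts in the developing brain, Foxm1 drives genes of mitosis, Foxo factors carry the signal of insulin and growth factors through PI3K and Akt, and Foxp factors are repressors that act in neural, heart, lung and lymphoid development.

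The deposited peaks carry a start and an end but no height, so each value below is a length of DNA under peaks and not an amount of 5fC. Null libraries covered between 68.4 and 207.0 Mb with 101344 to 254319 peaks, and WT libraries between 0.894 and 24.0 Mb with 1563 to 42012 peaks. The depth of sequencing is unknown from these positions, and a library with more reads could give more peaks. Tissue labels were checked on lists of markers in the null libraries. All 11 tested heart genes had less cover in hindbrain than in heart, relative to the library's total. Of 13 hindbrain genes, 7 had more cover in hindbrain than in heart. Against carcass 0 of the 13 were higher in hindbrain and 3 were lower. These were the Hox genes Hoxa2, Hoxb1 and Hoxb2, which had no peak in any null hindbrain. The 13 windows had cover of 4.64% to 5.74% in null hindbrain and 10.4% to 13.1% in null carcass, so this list did not mark hindbrain against carcass. The 7 liver windows had cover of 4.12% to 5.865% in null hindbrain and 4.98% in null liver, and the 6 erythroid windows 1.88% to 2.91% and 0.911%, so neither list marked the liver library. In bulk tissue, a smaller share of cells with 5fC at a site and less 5fC in each cell cannot be told apart.

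The 5 stretches printed here show the kinds of 5fC region found at forkhead genes. Each is the plus strand of NCBIM37, cut to 300 bases from a longer stretch, and in all but the Foxo3 sequence capitals mark CpG, the dinucleotide in which most cytosine methylation of mammals is found. The first stretch was under peaks in all 9 null libraries and in no WT library. It spans 600 bases around the start of Foxs1, a short gene on the minus strand, and chr2:152758945-152759244 is the part just before the gene start, with 6 CpG.
Foxs1: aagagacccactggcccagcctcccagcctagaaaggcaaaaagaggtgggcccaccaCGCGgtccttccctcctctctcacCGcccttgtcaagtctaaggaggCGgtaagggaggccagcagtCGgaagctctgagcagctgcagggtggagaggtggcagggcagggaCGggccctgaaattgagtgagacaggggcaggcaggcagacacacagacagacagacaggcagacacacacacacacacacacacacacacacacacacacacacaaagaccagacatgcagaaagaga
The second, chr10:41989501-41989800, lies in an intron of Foxo3, which is on the minus strand, and belongs to a 700-base stretch whose middle lies 7111 bases into the gene and which was also under peaks in all 9 null libraries and in no WT library. Capitals mark the forkhead core motif TGTTTAC, here on the minus strand and so read as GTAAACA.
Foxo3: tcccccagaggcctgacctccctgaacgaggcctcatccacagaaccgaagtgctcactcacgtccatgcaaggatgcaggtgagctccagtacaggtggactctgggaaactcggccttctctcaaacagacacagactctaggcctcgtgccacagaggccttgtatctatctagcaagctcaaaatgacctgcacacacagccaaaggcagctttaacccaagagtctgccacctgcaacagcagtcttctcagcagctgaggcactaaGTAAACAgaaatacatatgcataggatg
The third, chr6:128314701-128315000, lies in an intron of Foxm1. Its 500-base stretch, with its middle 1865 bases from the gene start, was under peaks in all 4 null hindbrains and in no other library, and the part shown holds 3 CpG.
Foxm1: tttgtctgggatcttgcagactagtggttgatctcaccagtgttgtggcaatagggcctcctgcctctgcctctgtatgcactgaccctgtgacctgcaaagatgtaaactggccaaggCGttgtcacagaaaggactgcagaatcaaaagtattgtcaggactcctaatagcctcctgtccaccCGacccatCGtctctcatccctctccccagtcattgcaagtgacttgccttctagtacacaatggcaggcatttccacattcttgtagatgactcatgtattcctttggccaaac
The fourth, chr8:123648251-123648550, lies downstream of Foxc2, within the annotated coding gene Gm20388. Its 400-base stretch, with its middle 8329 bases from the start of Foxc2, was under peaks in both null hearts and the null liver but in no null hindbrain or carcass, and the part shown holds 11 CpG.
Foxc2: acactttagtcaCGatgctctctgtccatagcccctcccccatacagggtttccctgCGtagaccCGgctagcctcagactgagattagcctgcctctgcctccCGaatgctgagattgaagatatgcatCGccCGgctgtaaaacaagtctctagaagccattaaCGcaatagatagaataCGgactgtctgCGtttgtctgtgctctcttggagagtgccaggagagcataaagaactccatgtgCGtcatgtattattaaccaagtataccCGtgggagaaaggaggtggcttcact
The fifth, chr9:98849351-98849650, lies upstream of Foxl2 and overlaps Foxl2os, a long non-coding RNA on the other strand. Its 400-base stretch, with its middle at -6526 from the gene start, was under peaks in both WT carcasses and in no null library, and the part shown holds 7 CpG.
Foxl2: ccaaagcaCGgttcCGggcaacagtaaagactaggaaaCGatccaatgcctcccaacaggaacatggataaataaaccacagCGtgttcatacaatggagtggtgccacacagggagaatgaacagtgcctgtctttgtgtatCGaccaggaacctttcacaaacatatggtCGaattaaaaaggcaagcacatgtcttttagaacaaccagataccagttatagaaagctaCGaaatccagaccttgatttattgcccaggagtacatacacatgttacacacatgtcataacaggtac

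Long forkhead genes had more cover on average than short ones, with exceptions among single members. In null hindbrain, peaks lay on 5.00, 3.935, 4.52 and 4.69% of the average forkhead window, against 4.07, 2.97, 3.93 and 3.84% of the average window of all protein-coding genes. In null carcass the averages were 7.88 and 10.4% for forkhead windows and 5.11 and 7.11% for all, and in null heart 12.2 and 5.75% against 10.4 and 5.03%. The null liver had 4.48% against 3.43%. The forkhead average was thus above that of all genes in each of the 9 null libraries. Between 30 and 36 of the 43 members had a peak in a null hindbrain library, and between 25 and 35 in another null library. As a share, members with a peak were below all windows in both null hearts (74.4% against 81.25% and 58.1% against 71.3%), in null liver (58.1% against 63.0%) and in the null hindbrain of litter O (69.8% against 71.4%), and above them in the other 5 null libraries.

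In null hindbrain, the means of long and short members stood on opposite sides of those of all genes of like length. The 25 members shorter than 10 kb, most of them developmental factors such as the Foxc, Foxd and Foxf genes, had 2.31% ± 0.149 of the window under peaks in null hindbrain (SD, n = 4), against 3.11% ± 0.421 for all 8861 genes of that length. The 9 members of 10 to 50 kb had 6.71% ± 0.841 against 3.82% ± 0.522 for 8665 genes in null hindbrain, and the 9 of at least 50 kb had 8.55% ± 1.05 against 4.57% ± 0.610 for 4841 genes. The last class holds Foxj3, Foxk1, Foxk2, Foxn3, Foxo1, Foxo3, Foxp1, Foxp2 and Foxp4. Its members had 20.6% ± 4.28 against 8.90% ± 2.07 in null carcass and 24.0% ± 9.68 against 9.92% ± 4.81 in null heart (SD, n = 2 each), and 12.2% against 4.64% in null liver. Members of 10 to 50 kb had 7.84% against 6.02% in null carcass, 7.2% against 8.29% in null heart and 3.23% against 3.56% in null liver. Short members exceeded short genes in carcass, with 5.46% ± 1.06 against 4.68% ± 1.08, but not in heart, with 4.21% ± 2.60 against 5.99% ± 3.07 (SD, n = 2 each). Single members departed from these class means. In null hindbrain the long Foxp2, Foxj3 and Foxk2 had means of 3.23, 2.97 and 1.04%, and the short Foxj1 had 12.35%. In null carcass the short Foxs1 and Foxc1 had means of 35.6 and 31%.

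**Figure D1:**
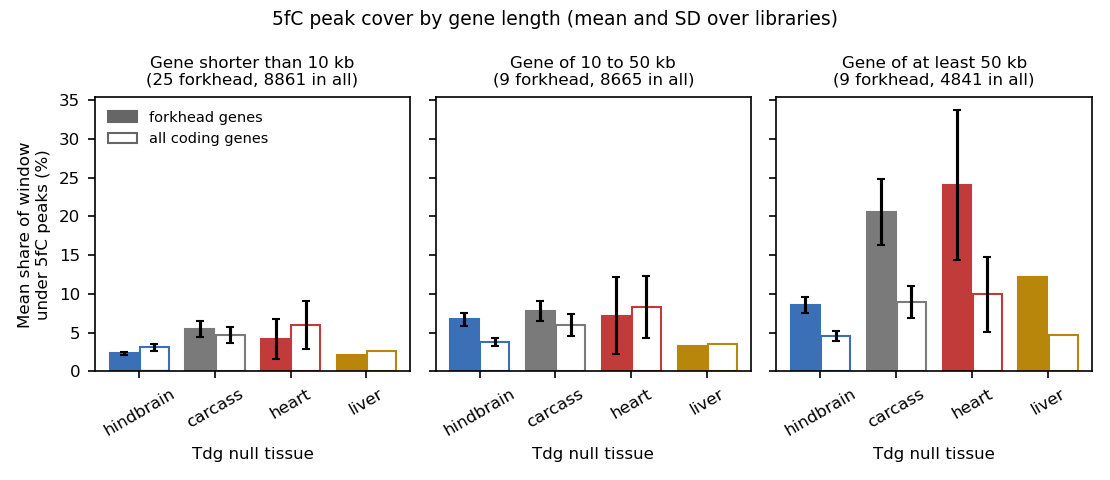
Mean share of the gene window (gene and 10 kb on each side) under 5fC peaks, in percent, in Tdg null libraries by gene length, for forkhead genes (filled bars) and all protein-coding genes (open bars); bars are means over libraries and error bars are SD (hindbrain n = 4, carcass and heart n = 2, liver 1 library and no error bar). Forkhead genes of at least 50 kb reach 8.55% in hindbrain and 20.6% in carcass against 4.57% and 8.90% for all genes of that length, and short forkhead genes have 2.31% in hindbrain against 3.11%.

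In null hindbrain short members were below short genes in the gene body and in the flanks alike. Of their gene bodies 3.14% ± 0.188 lay under peaks against 4.43% ± 0.543 for all short genes, and 2.18% ± 0.159 of their flanks against 2.94% ± 0.410 (SD, n = 4 each). Only 7 of the 25 short members (28.0%) had a peak in the gene body in any null library, whereas 4310 of 8861 short genes did (48.6%). In the 9 long members the bodies had 7.51% in null hindbrain, 21.2% in carcass and 21.1% in heart, against 4.59, 9.44 and 9.15% for all long genes. Their flanks had 10.2% in null hindbrain, above the bodies, and 17.4% in carcass and 17.0% in heart, against 3.99, 7.12 and 7.65% for all long genes. Most peak bases of Foxp2 (96.8%), Foxo3 (93.5%), Foxn3 (93.2%) and Foxp1 (93.0%) in null libraries fell within the gene. The gene itself takes up most of these windows, at 540.6 of 560.6 kb, 94.92 of 114.9 kb, 255.1 of 275.1 kb and 341.2 of 361.2 kb. At Foxa3, a factor of endoderm and liver, the gene takes up 10.26 of 30.26 kb and held 4.83% of the null peak bases.

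**Figure D2:**
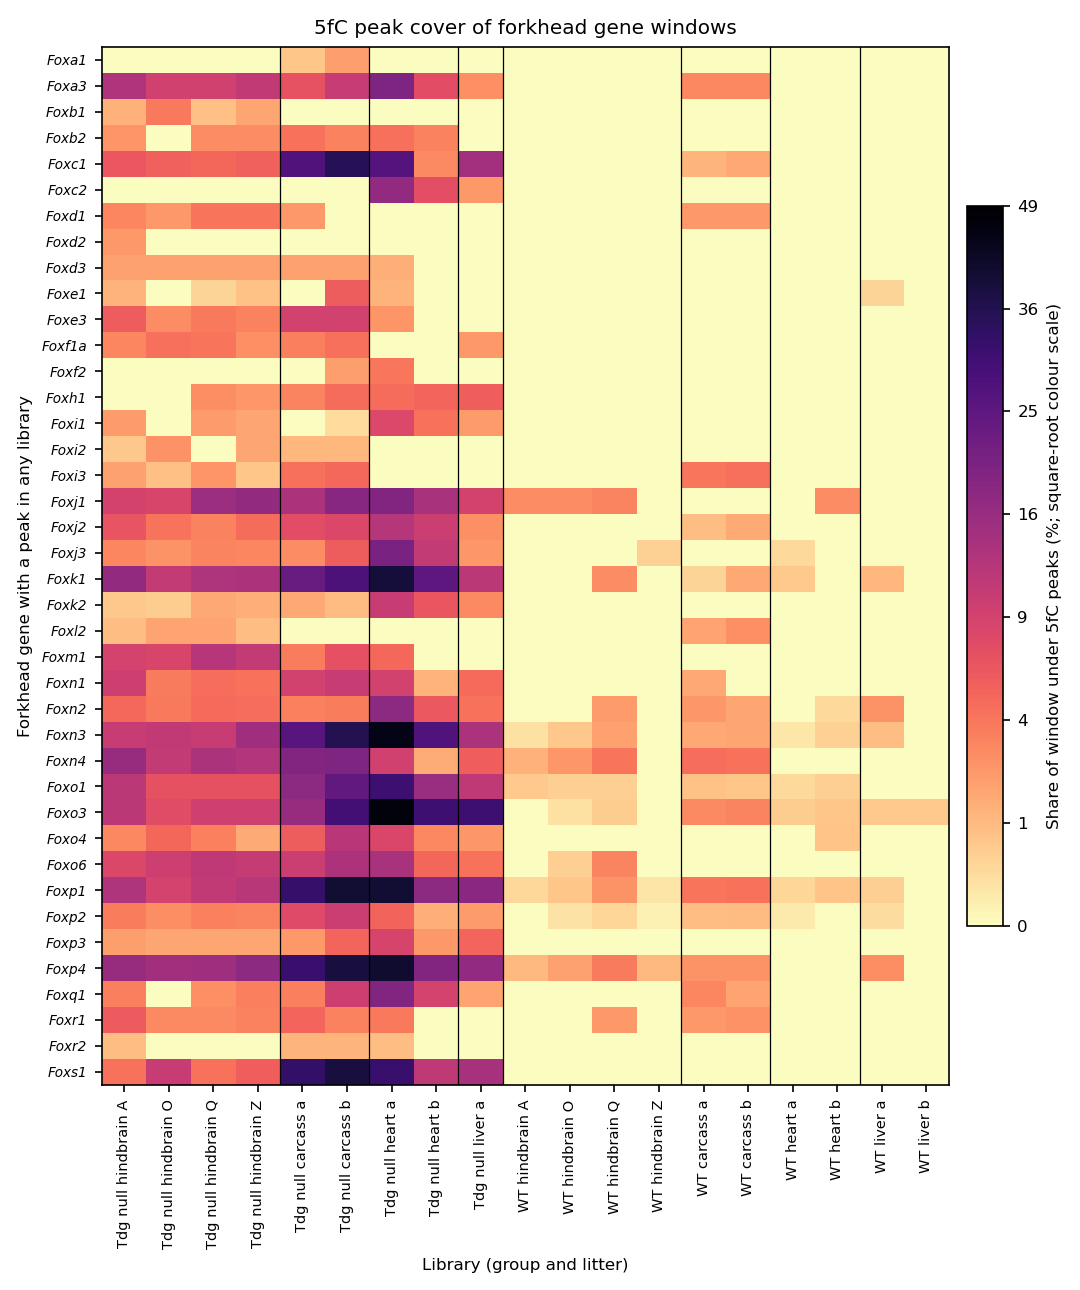
Share of the window under 5fC peaks (colour, in percent on a square-root scale) of the forkhead genes with a peak in any library (rows) in the 19 libraries (columns, by group and litter or pair). Null libraries fill most rows, the long genes Foxk1, Foxn3, Foxo1, Foxo3, Foxp1 and Foxp4 are among the darkest rows, the short Foxs1 and Foxc1 are dark in null carcass, and Foxb1 has cover in null hindbrain alone.

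Forkhead gene starts had little 5fC peak cover. In the first 1 kb of the gene, 0.818% of forkhead bases lay under peaks in null hindbrain, from 0.567% in the lowest to 1.27% in the highest library, against 4.73% for all genes (3.66% to 5.57%). In carcass the values were 3.52% (3.19% to 3.85%) and 6.86% (5.76% to 7.95%), and in heart 2.17% (0.8% to 3.55%) and 7.77% (4.83% to 10.7%). In hindbrain, carcass and heart the highest forkhead library lay below the lowest value for all genes. In null liver the 2 values were close, 3.55% and 3.73%. Away from the start the steps went both ways. Between 8 and 9 kb upstream, null hindbrain had 8.86% (7.93% to 9.30%) on forkhead windows and 3.17% on all, and between 5 and 6 kb into the gene or beyond it null carcass had 17.1% (16.2% to 18%) against 6.28%. Other steps were lower on forkhead windows, with 2.34% against 3.19% in null hindbrain between 7 and 8 kb upstream, 1.78% against 3.47% in null hindbrain between 6 and 7 kb after the start, and 2.60% against 4.74% in null carcass between 4 and 5 kb upstream. Each 1 kb step holds 43 kb of forkhead sequence, so that single peaks weigh on it.

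Most forkhead starts lie in CpG islands, stretches rich in unmethylated CpG. An island, taken as at least 200 bases in which G and C make up 50% or more, with a CpG count over 0.6 of that expected from base composition, covered the start of 33 of 43 members (76.7%) and of 11801 of all genes (52.8%). Among genes with an island at the start, 0.869% of forkhead bases within 1 kb of the start were under peaks in null hindbrain (0.612% to 1.29%) against 4.09% for all such genes (3.39% to 4.505%). The same comparison gave 1.17% (0.963% to 1.37%) against 6.23% in carcass, 1.44% (0.530% to 2.35%) against 6.55% in heart, and no forkhead base against 3.03% in liver. The 10 members without an island had 4% in null hindbrain (3% to 4.5%), against 5.11% for all genes without one. In carcass these members had 11.4% (9.495% to 13.3%) against 7.95%, in heart 8.14% (3.50% to 12.8%) against 8.97%, and in liver 12.8% against 4.56%. In the null groups, forkhead starts with an island were thus lower than other starts with one, and those without an island lay above or below other starts depending on the tissue.

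Over the whole windows, islands made up a median of 7.72% of a forkhead window and 2.53% of any window. In null hindbrain 4.88% ± 0.417 of forkhead island bases were under peaks, 7.99% ± 1.11 of the shores (2 kb on either side) and 6.13% ± 0.714 of the rest, against 6.23% ± 0.849, 6.33% ± 0.668 and 3.71% ± 0.519 for all genes (SD, n = 4 each). Forkhead islands were lower and forkhead shores and remaining sequence higher than in all genes. In WT hindbrain forkhead islands had 1.58% ± 0.951, with libraries from 0.976% to 2.99%, against 0.536% ± 0.520 for all genes (SD, n = 4 each). The other WT tissues did not share this order, with forkhead islands at 1.78% against 1.78% in carcass, 0.278% against 0.412% in heart and 0.267% against 0.606% in liver.

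**Figure D3:**
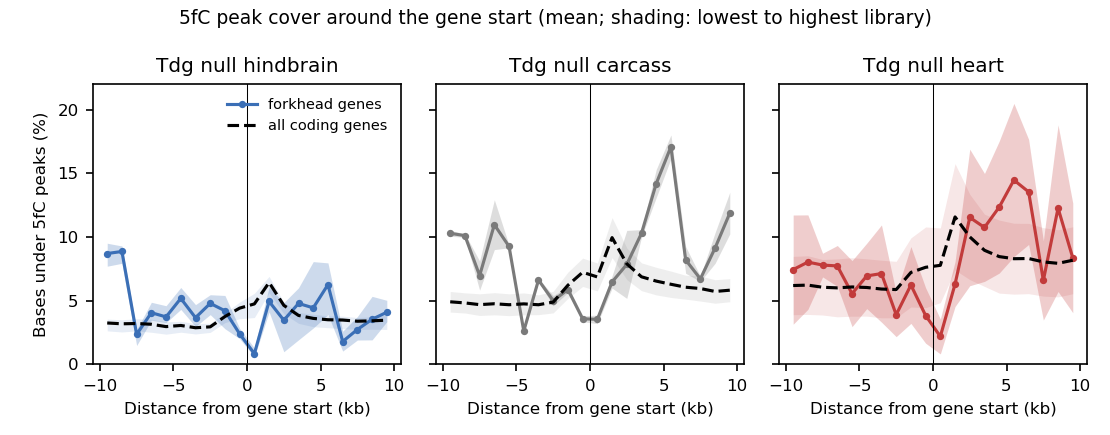
Share of bases under 5fC peaks (percent) in 1 kb steps from 10 kb before to 10 kb after the gene start, in Tdg null hindbrain (4 libraries), carcass (2) and heart (2), for 43 forkhead genes (coloured line and points) and all protein-coding genes (black dashed line); lines are means and shading runs from the lowest to the highest library. Forkhead cover dips in the first 1 kb, to 0.818% in hindbrain against 4.73% for all genes.

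The first comparison asks how 5fC cover of forkhead genes differs between embryos with and without TDG. Of the 39 members with a peak in at least 2 of 19 libraries, 34 had more bases under peaks in null than in WT hindbrain (limma, adjusted p under 0.05), beside 82.9% of all windows tested. Members without a WT peak entered this test through null libraries alone, as did other windows of that kind. In heart 26 rose, beside 83.3%, in carcass 29, beside 73.5%, and in liver 23, beside 55.7%. One member fell in carcass, Foxl2, beside 0.673% of windows. The median difference on the log2(bases + 500) scale was 1.39 for members and 1.80 for all windows in hindbrain, 2.11 and 2.51 in heart, 1.51 and 1.79 in carcass, and 1.38 and 1.39 in liver. Without a model, every null hindbrain was above every WT hindbrain in 29 of 43 members (67.4%) and in 63.3% of all windows. For a single gene this order of 4 against 4 has an exact two-sided permutation p of 0.0286, the smallest possible. These values are not scaled. Relative to the covered length of each library the median of all windows fell from 1.80 to 1.16 in hindbrain, 2.51 to 1.23 in heart, 1.79 to 0.37 in carcass and 1.39 to 0.82 in liver, and the members called as higher numbered 20, 12, 9 and 12, beside 52.0%, 43.4%, 16.0% and 21.2% of all windows, with 5 lower in carcass, beside 2.02% of all windows, where the unscaled fit had 1.

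The 8 members with the largest share in null hindbrain are given first. Foxp4, of the Foxp subfamily of repressors, had 16.15, 14.8, 15.1 and 17.6% in null and 1.03, 1.81, 3.74 and 1.03% in WT hindbrain. Every null value lay far above every WT value, and the difference was 2.82 ± 0.46 (SE, adjusted p = 3.84e-05). Foxk1, a repressor known from muscle precursors, had 16.7, 10.6, 13.1 and 13.2% against 0, 0, 2.86 and 0%. Among WT hindbrains only that of litter Q had a peak there, below every null value, and the difference was 3.86 ± 0.53 (SE, adjusted p = 7.46e-06). Foxn4, which directs spinal interneurons and retinal cells, had 16.1, 10.6, 13.6 and 12.6% against 1.26, 2.27, 4.04 and 0%, with a difference of 2.37 ± 0.41 (SE, adjusted p = 7.04e-05). Foxj1, the master gene of motile cilia, had 8.91, 8.50, 15.4 and 16.6% against 2.83, 2.83, 3.24 and 0%, with a difference of 1.80 ± 0.34 (SE, adjusted p = 0.000155). Its groups did not overlap, and the window also holds part of Rnf157.

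Foxn3, a repressor linked to cell-cycle checkpoints, had 10.4, 10.9, 10.3 and 15% in null and 0.182, 0.654, 1.82 and 0% in WT hindbrain, a difference of 4.34 ± 0.70 (SE, adjusted p = 3.44e-05). Foxp1, a repressor needed for heart and B cell development, had 13.1, 8.87, 10.8 and 11.9% against 0.3045, 0.692, 2.44 and 0.138%, a difference of 3.97 ± 0.72 (SE, adjusted p = 0.00011). Its window was crossed by 42, 34, 38 and 36 peaks in null hindbrain. Foxa3 had 12.9, 9.25, 9.25 and 10.9% and Foxm1 8.81, 8.50, 12.15 and 10.6% in null hindbrain, and both had no peak in any WT hindbrain (adjusted p = 9.23e-08 and 9.25e-07). The window of Foxa3 also reaches Irf2bp1 and Sympk, and its call was lost with gene bodies alone. Foxm1 had no peak in any WT library and entered the test through null libraries alone, so its call is a description. All 8 had non-overlapping genotypes in hindbrain, beside 63.3% of all windows, but they were picked for their null values. Relative to the covered length of each library, however, the fitted difference turned to -0.62 for Foxn4, -0.60 for Foxp1, -1.12 for Foxj1 and -1.69 for Foxp4, and stayed above 0 for the other 4, of which Foxm1 and Foxa3 kept their calls and Foxk1 and Foxn3 lost theirs.

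**Figure D4:**
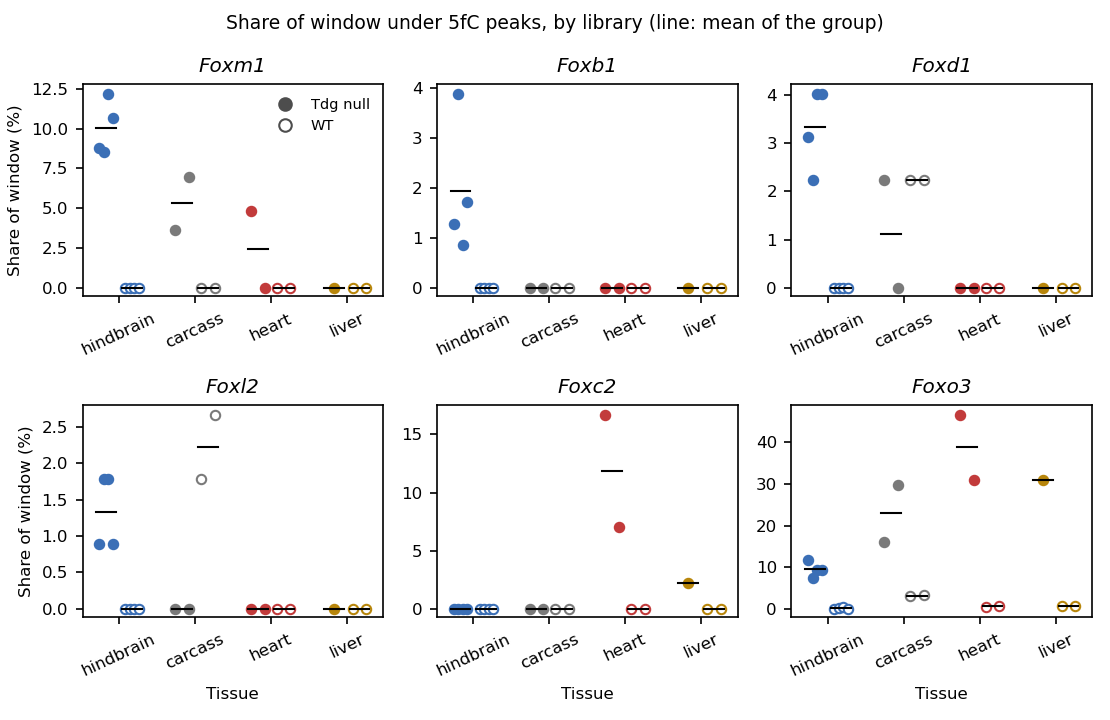
Share of the window under 5fC peaks (percent, axes differ between panels) of 6 forkhead genes in each library, by tissue; filled points are Tdg null, open points WT, and lines are group means. Foxm1 and Foxb1 are highest in null hindbrain, Foxc2 is at 0 outside null heart and liver, Foxl2 has peaks in WT but not null carcass, and Foxo3 reaches 46.6% in null heart.

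Some members had no 5fC peak. Foxa2, which patterns floor plate and endoderm, and Foxd4 were listed at 0 in all 19 libraries, and Foxd2 had a peak in the null hindbrain of litter A alone, 2.21% of its window. None of these was tested. Foxa1, a partner of Foxa2 in endoderm, had 0.718 and 1.96% in null carcass and no peak elsewhere. Only these 2 libraries brought it into the test, so its values are given as a description. Foxf2, of gut and face mesenchyme, had 3.91 and 0% in null heart and 0 and 1.95% in null carcass. Foxc2, which acts in vessels, somites and the outflow tract of the heart, also had no peak in null hindbrain. A lack of peaks says that no interval passed the peak caller and does not bound the 5fC there.

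Other members had lower mean cover in null hindbrain than the 8 with the largest share. In null hindbrain Foxj2 had 6.60, 4.18, 3.30 and 4.62%, Foxn1, which forms thymic epithelium, 9.595, 3.675, 4.49 and 4.29%, and Foxo4, a Foxo factor on the X chromosome, 3.04, 4.93, 3.42 and 1.52%, with no peak in WT hindbrain. Foxp3, which defines regulatory T cells and also lies on the X chromosome, had 1.97, 1.69, 1.69 and 1.69% in null hindbrain and 8.71 and 2.25% in null heart. Foxb2, a relative of Foxb1, had 2.35, 0, 2.82 and 2.82% and Foxi2 0.6495, 2.58, 0 and 1.72%. These 6 rose in null hindbrain, and none of them had a peak in WT hindbrain. Foxp3, Foxb2 and Foxi2, and Foxh1 below, had no peak in any WT library. They entered the test through null libraries alone, so their calls are a description. The call of Foxi2 was lost with litter as a fixed block in hindbrain alone. Foxh1, which joins Smad proteins in Nodal signalling, had 0, 0, 2.77 and 2.31% in null hindbrain and 4.62 and 5.08% in null heart, and its hindbrain call (adjusted p = 0.0414) was lost when any 1 of 12 libraries was left out (adjusted p up to 0.158) and kept in 11 of 31 alternatives. Foxe1, a thyroid factor, had 1.245, 0, 0.368 and 0.807% and Foxr2 0.880, 0, 0 and 0% in null hindbrain, without a call (adjusted p = 0.286 and 0.336). These 9 are named to complete the family, after their values were seen.

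Null hindbrain and null heart were compared to ask which forkhead genes carry 5fC by tissue, with bases scaled to the covered length of each library. Of 39 members tested, 12 were higher in hindbrain (30.8%), beside 12.9% of all windows, and 9 were higher in heart (23.1%), beside 21.8%. Without the null heart of pair b these were 5 and 5, beside 5.53% and 6.74%. The median difference was -0.01 for members and -0.17 for all windows. Hindbrain and heart came from different embryos, so tissue and embryo cannot be told apart, and the heart group has 2 libraries. The marker lists moved with this contrast: peaks lay on 3.69% to 5.04% of the 12 heart windows in null hindbrain and on 19.9% to 36.9% in null heart, with Nkx2-5 and Hand2 at 0 in hindbrain, and on 4.64% to 5.74% and 1.12% to 3.94% of the 13 hindbrain windows, with Sox2 and Atoh1 among those at 0 in heart. Hoxa2 and Hoxb1 were at 0 in both tissues. Their part in the forkhead values was not tested. Without scaling 6 members were higher and 12 lower in hindbrain, beside 3.13% and 30.2% of all windows, and the median of all windows moved from -0.17 to -0.70, and scaled by the median window 14 were higher and 6 lower, beside 16.6% and 15.2%. The 12 include Foxb1, Foxd1 and Foxl2, which had peaks in at least 2 null libraries only through hindbrain, and the 9 include Foxc2, which had null peaks only in heart and liver. Leaving out each library in turn kept the calls of Foxf1a, Foxj3, Foxm1, Foxn4, Foxo3, Foxp1 and Foxp2.

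Among the members higher in hindbrain, Foxm1 differed most of those with peaks in both tissues. It had 8.81, 8.50, 12.15 and 10.6% in null hindbrain, 4.86 and 0% in null heart, 3.64 and 6.985% in null carcass and none in null liver, and the difference from heart was 2.57 ± 0.40 (SE, adjusted p = 0.00204). All 4 hindbrains were above both hearts. Its window also reaches Tulp3, 4933413G19Rik and 5930416I19Rik, and 56.8% of its null peak bases were in Foxm1 itself, the printed intron stretch among them. Foxn4 had 9.33 and 1.51% in null heart, below its 4 hindbrain values, 18.9 and 19.7% in carcass, above them, and a difference of 2.08 ± 0.29 (SE, adjusted p = 0.00129) from heart. High cover of Foxn4 was thus seen in both hindbrain and carcass.

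Several short developmental members had hindbrain peaks and none in heart. Foxf1a, a factor of lateral mesoderm and gut mesenchyme, had 3.10, 4.43, 3.99 and 2.66% in null hindbrain, 3.545 and 4.43% in carcass and 2.22% in liver, and was listed at 0 in both hearts (adjusted p = 0.00379). Foxd1, of kidney stroma and retina, had 3.12, 2.23, 4.01 and 4.01% in null hindbrain and none in heart. Both groups were apart in each case. Foxb1, a factor of the neural tube and chosen after its values were seen, had peaks in null hindbrain and in no other of the 19 libraries, with 1.29, 3.87, 0.861 and 1.72%. Foxb1, Foxd1 and Foxl2 entered the test between null tissues only through hindbrain, and their values are given as a description.

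Foxe3, a lens factor, had 5.72, 2.86, 3.81 and 3.34% in null hindbrain and 2.38 and 0% in null heart, a difference of 1.35 ± 0.31 (SE, adjusted p = 0.0102), which without the heart of pair b had an adjusted p of 0.0887. Foxr1 had 5.815, 2.91, 2.91 and 3.27% and 3.86 and 0%, overlapping groups with a difference of 1.32 ± 0.40 (SE, adjusted p = 0.0308), lost without the heart of pair b or the hindbrain of litter A or O (adjusted p up to 0.266). The remaining calls were Foxp2, at 0.95 ± 0.19 (SE, adjusted p = 0.00598), Foxo6, the brain-enriched Foxo factor, at 0.84 ± 0.22 (SE, adjusted p = 0.0155), Foxd3, a factor of the neural crest, at 0.88 ± 0.24 (SE, adjusted p = 0.0205), Foxi3, without a peak in heart (adjusted p = 0.0317), and Foxl2, described with the WT carcasses. Before scaling, mean shares in null hindbrain and null heart were 3.23 and 3.3% for Foxp2 and 9.87 and 9.31% for Foxo6. Neither of these 2 calls was kept without scaling. That of Foxo6 was also lost with gene bodies, with 50 kb on each side and with numbers of peaks. Foxd3 had the same 1.84% in all 4 null hindbrains and in both null carcasses. The calls of Foxo6 and Foxd3 were lost without the heart of pair b, with adjusted p of 0.115 and 0.0993, and that of Foxi3 without either heart or the hindbrain of litter A or Q, with up to 0.133.

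Foxc2 led the members higher in heart. Peaks lay on 16.7 and 7.04% of its window in the null hearts and 2.2% in the null liver, and on none of it in any hindbrain, any carcass or any WT library. It entered the test between null tissues only through heart and liver, so these values are given as a description. None of the peaks lay in Foxc2 itself, and the window overlaps Gm20388 and Mthfsd. The cover common to both hearts and the liver is the stretch printed above. Foxk2, a relative of Foxk1, had 0.672, 0.538, 1.61 and 1.34% in null hindbrain and 10.35 and 6.45% in null heart, with no overlap and a difference of -1.93 ± 0.36 (SE, adjusted p = 0.00407), which lost its call without the heart of pair b (adjusted p = 0.0648).

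The long widely expressed members followed. Foxj3 had 3.11, 2.47, 3.2 and 3.11% in null hindbrain and 20.1 and 10.6% in null heart, a difference of -1.50 ± 0.18 (SE, adjusted p = 0.000876). Foxo3, a Foxo factor of stress and quiescence, had 11.7, 7.48, 9.40 and 9.40% in null hindbrain, 46.6 and 31.0% in null heart, 16.0 and 29.85% in null carcass and 31.0% in null liver, with a difference from heart of -1.29 ± 0.18 (SE, adjusted p = 0.00143). Foxn3 had 44.6 and 27.5% in null heart, far above its hindbrain values, and a difference of -0.90 ± 0.18 (SE, adjusted p = 0.00605). For Foxj3, Foxo3 and Foxn3 both hearts were above all 4 hindbrains. Foxq1, known from hair and stomach, had 3.51, 0, 2.63 and 3.51% and 19.3 and 8.77%, a difference of -1.45 ± 0.47 (SE, adjusted p = 0.0408). Foxo1, Foxp1 and Foxk1 were lower in hindbrain than in heart, with differences of -0.78 ± 0.21 (SE, adjusted p = 0.0197), -0.56 ± 0.10 (SE, adjusted p = 0.00343) and -0.52 ± 0.17 (SE, adjusted p = 0.0401). Leaving out the heart of pair b, which has the smaller cover of the 2 hearts with 93.1 against 207.0 Mb, ended the calls of Foxn3 (adjusted p = 0.11), Foxq1, Foxo1 and Foxk1. The call of Foxo1 also ended without the heart of pair a (adjusted p up to 0.18), that of Foxq1 without the other heart, either carcass or the hindbrain of litter Q (up to 0.208), and that of Foxk1 without either carcass or the hindbrain of litter O, Q or Z (up to 0.312).

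**Figure D5:**
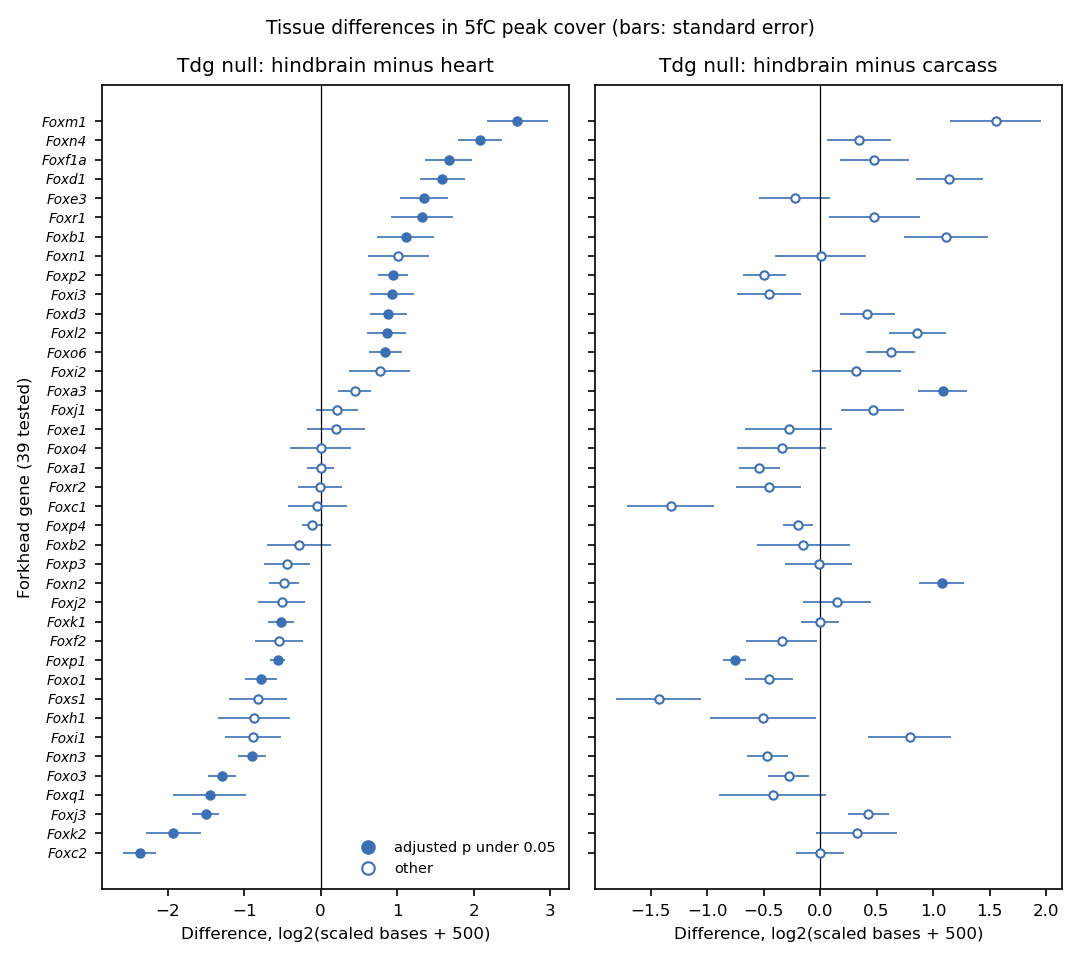
Difference in 5fC peak cover between Tdg null tissues for the 39 forkhead genes tested, on the log2(scaled bases + 500) scale (horizontal axis; bars are SE; filled points have an adjusted p under 0.05), for hindbrain minus heart (left) and hindbrain minus carcass (right). In the left panel 12 genes are called to the right of 0 and 9 to the left, and in the right panel 2 and 1; where a tissue has no peak the position depends on the added 500 bases and is no fold change.

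Null hindbrain and null carcass differed at fewer members. Of 39 tested, 2 were higher in hindbrain (5.13%), beside 4.76% of all windows, and 1 was lower (2.56%), beside 1.72%, with a median of 0.00 for members and 0.20 for all windows. Scaled by the median window 2 were higher and 3 lower, beside 3.51% and 3.91%, and without scaling no member and only 0.163% and 0.766% of all windows were called higher and lower, and the median of all windows was -0.45. Foxa3 had 12.9, 9.25, 9.25 and 10.9% in null hindbrain and 6.61 and 10.25% in null carcass, overlapping before scaling, and the scaled difference was 1.08 ± 0.22 (SE, adjusted p = 0.0269). Foxn2 had 4.87, 3.87, 4.73 and 4.44% and 3.44 and 3.58%, a difference of 1.08 ± 0.20 (SE, adjusted p = 0.0219). With gene bodies alone the calls of Foxa3 and Foxn2 were lost, and the window of Foxa3 also reaches Irf2bp1 and Sympk. Foxp1 had 13.1, 8.87, 10.8 and 11.9% in hindbrain and 32.1 and 40.0% in carcass, with no overlap and a difference of -0.76 ± 0.10 (SE, adjusted p = 0.0118). Without the carcass of pair a, and also without that of pair b, no window of any gene was called, and the 3 calls had adjusted p up to 0.18, 0.146 and 0.146, and those of Foxa3 and Foxn2 ended without the hindbrain of litter Q, that of Foxa3 also without litter O.

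Foxs1 and Foxc1 had high carcass values whose difference from hindbrain did not pass the test. Foxs1, of pericytes and neural crest derivatives, had 4.22, 10.3, 4.22 and 5.63% in null hindbrain, 32.85 and 38.3% in null carcass, 31.4 and 11.3% in null heart and 14.1% in null liver, with carcass shares close to those of Foxp1 and Foxp4. Its difference between hindbrain and carcass was -1.43 ± 0.38 (SE, adjusted p = 0.0558). Foxc1, a factor of mesenchyme, vessels and somites, had 6.25, 5.42, 5.00 and 5.42% in hindbrain, 27.0 and 35.0% in carcass, 26.6 and 2.92% in heart and 14.5% in liver, with a difference of -1.32 ± 0.38 (SE, adjusted p = 0.069). For both genes all hindbrains were below both carcasses. The 2 windows also hold Dusp15 and Mylk2 and part of Gmds. Foxm1, at 1.55 ± 0.40 (SE, adjusted p = 0.0515), did not pass. Foxs1 and Foxc1 are named here after their values were seen.

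Null heart and carcass come from the same embryos. Here 6 members were higher in heart (15.4%), beside 24.5% of all windows, and 5 were higher in carcass (12.8%), beside 8.46%, with medians of -0.09 and 0.37. Scaled by the median window 5 were higher in heart and 8 in carcass, beside 13.1% and 13.7%. Without scaling 4 were higher in each, beside 9.015% and 4% of all windows, the medians were -0.31 for members and 0.24 for all windows, and the calls of Foxn2, Foxp2 and Foxo3 were lost. Heart was higher for Foxc2, which entered through heart and liver alone, Foxk2 at 2.25 ± 0.41 (SE, adjusted p = 0.00488), Foxj3 at 1.93 ± 0.21 (SE, adjusted p = 0.00111), Foxi1, of inner ear and kidney, at 1.68 ± 0.42 (SE, adjusted p = 0.0166), Foxn2 at 1.55 ± 0.23 (SE, adjusted p = 0.00236) and Foxo3 at 1.01 ± 0.21 (SE, adjusted p = 0.00801). Carcass was higher for Foxn4 at -1.73 ± 0.33 (SE, adjusted p = 0.00566), Foxe3 at -1.58 ± 0.36 (SE, adjusted p = 0.0116), Foxp2 at -1.44 ± 0.22 (SE, adjusted p = 0.00279), and for Foxi3 and Foxf1a, both without a heart peak (adjusted p = 0.0133 and 0.0298). Foxp2, known for its part in speech and vocal circuits, had 7.65 and 9.86% in null carcass and 5.26 and 1.34% in null heart, with both carcasses above both hearts. The calls of Foxj3, Foxn2 and Foxp2 were kept without any 1 library. That of Foxk2 ended without the heart of pair b (adjusted p = 0.0542) and that of Foxn4 without the carcass of pair a (0.0529). Either of these 2 libraries ended the calls of Foxe3 (adjusted p up to 0.0762), Foxo3 (0.0717) and Foxi3 (0.0806), and any of the 4 hearts and carcasses those of Foxi1 (0.104) and Foxf1a (0.127).

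In WT embryos, where TDG removes 5fC, 9 of 43 members (20.9%) had peaks in at least 5 of 10 libraries, beside 13.7% of all windows: Foxk1, Foxn2 and Foxn4 in 5, Foxo1, Foxp2 and Foxp4 in 7, Foxn3 and Foxo3 in 8 and Foxp1 in 9. All but Foxn2 and Foxn4 are at least 50 kb long, and of all genes of that length 45.0% had peaks in as many WT libraries. Foxp1 had 0.3045, 0.692, 2.44 and 0.138% of the window in WT hindbrain, 3.99 and 4.29% in WT carcass, 0.332 and 0.7475% in WT heart and 0.471 and 0% in WT liver. The carcass values are the highest of these, and WT carcass also covered the most sequence of all WT tissues. Foxo3 had 2.96 and 3.22% in WT carcass, 0.522 and 0.696% in WT heart and 0.609 and 0.609% in WT liver, and was the one member with a peak in the WT liver of pair b. Foxn4 had 4.54 and 4.29% in WT carcass, against 18.9 and 19.7% in null carcass. Between 4 and 12 members had a peak in a WT hindbrain, 18 and 17 in WT carcass, 7 and 7 in WT heart, and 8 and 1 in WT liver. These were 9.30% to 27.9% of members beside 3.63% to 27.2% of all windows in hindbrain, 41.9% and 39.5% beside 39.9% and 35.8% in carcass, 16.3% beside 12.2% in each heart, and 18.6% and 2.33% beside 31.0% and 5.285% in liver.

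At 3 short members WT carcass was close to null carcass or above it. Foxl2, a factor of ovary and eyelid named here after its values were seen, had 1.78 and 2.66% in WT carcass and no peak in null carcass, heart or liver, and its carcass cover fell in null embryos (adjusted p = 0.000102). In hindbrain the order was the reverse, with 0.888, 1.78, 1.78 and 0.888% in null and none in WT embryos (adjusted p = 7.33e-05). The sites differed: both carcasses shared the printed upstream stretch, and the 4 hindbrains shared 100 bases downstream, 12024 bases from the gene start. With 50 kb on either side of the gene the fitted carcass difference turned to 1.35, a call in the other direction (adjusted p = 0.005845). Foxd1 had 2.23 and 2.23% in WT and 2.23 and 0% in null carcass, and Foxi3, of placodes and pharyngeal arches, 3.98 and 4.385% and 4.385 and 4.79%, without a call for either (adjusted p = 0.0893 and 0.747). Scaled to covered length, Foxi3 was lower in null carcass, at -1.83 (adjusted p = 1.71e-05).

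Some stretches recurred in every null library. Bases under peaks in all 9 null libraries made up 28 stretches in 11 members, 22500 bases or 0.830% of all forkhead windows, against 0.454% of all windows. Foxp1 had 7, Foxn3 6, Foxk1 3, Foxo1, Foxo3, Foxp2 and Foxp4 2 each, and Foxj1, Foxn2, Foxn4 and Foxs1 1 each. In place, 19 lay in introns, 4 in exons, 3 upstream and 2 downstream, and 1 lay in an island, 10 in shores and 17 away from both. No WT library had a peak on 14 of them. They held 2.16 CpG per 100 bases, against 1.43 in whole forkhead windows and 0.987 in all windows, and such stretches in all windows held 2.12. The forkhead core motif TGTTTAC, searched on both strands, was in 5 of the 28 (17.9%) and in 9.75% of 8290 such stretches in all windows, whose mean length was 686.4 against 803.6 bases. A match names letters only and no bound factor.

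Other stretches were limited to a tissue. Bases under peaks in all 4 null hindbrains and no other null library made up 8 stretches in 7 members, 0.0738% of forkhead windows against 0.0758% of all windows, the longest of 500 bases each at Foxm1 (2) and Foxd1 (1), the last also under peaks in both WT carcasses. Both null hearts and the null liver shared 52 stretches in 15 members that no null hindbrain or carcass covered, 0.705% of forkhead windows against 0.570% of all. Both WT carcasses shared 8 stretches in 5 members that no null library covered, 0.111% against 0.0283%, 4 of them in Foxp2 and the others at Foxi3, Foxl2, Foxn3 and Foxo3. Of all bases under peaks in the 4 null hindbrains, 23.4% at forkhead genes and 31.75% at all genes were under no null heart peak, and 4.70% and 6.87% under no null carcass peak. No peak of any of the 19 libraries touched 71.05% of forkhead window bases and 81.9% of all window bases.

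Lists of genes from pathways in which forkhead factors work were read from the same fits. Of 18 genes of the Foxo pathway, from the insulin receptor through PI3K and Akt to Foxo targets, 18 rose in null hindbrain, 17 in heart, 17 in carcass and 15 in liver, beside 82.9%, 83.3%, 73.5% and 55.7% of all windows, with a median hindbrain difference of 2.42 against 1.80 for all windows. Between null tissues, where 21.8% of all windows were lower and 12.9% higher in hindbrain than in heart, 5 were lower in hindbrain, Insr, Irs2, Pik3ca and Akt2 of the insulin signal and Bcl2l11, a Foxo target that triggers cell death, and 1 was higher, Sod2, a mitochondrial enzyme against superoxide. The 5 lay between -1.28 ± 0.18 (SE, adjusted p = 0.00133) for Bcl2l11 and -0.90 ± 0.25 (SE, adjusted p = 0.0199) for Akt2, and Sod2 was at 1.54 ± 0.43 (SE, adjusted p = 0.022). Foxo1 and Foxo3 themselves were lower in hindbrain than in heart, and Foxo6 was called higher only with scaling.

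Of 13 co-factors of Foxp, Foxa and Foxh1 proteins, 11, 12, 12 and 12 rose in null hindbrain, heart, carcass and liver, beside 82.9%, 83.3%, 73.5% and 55.7% of all windows. Against heart, 7 were lower in hindbrain, beside 21.8% of all windows, among them Smad2, Smad3 and Smad4, which carry TGF-beta signals and join Foxh1, and Mta1 and Gatad2b of the NuRD complex, and 2 were higher, beside 12.9%, the Groucho repressors Tle1 and Tle4. Tle4 was at 0.90 ± 0.18 (SE, adjusted p = 0.00579) and Smad2 at -1.19 ± 0.28 (SE, adjusted p = 0.0115). Of 6 mitotic genes linked to Foxm1, 5 rose in null hindbrain, beside 82.9% of all windows. Against heart 3 were higher in hindbrain, beside 12.9%, Ccnb2, listed at 0 in both hearts (adjusted p = 0.00139), Aurkb at 1.74 ± 0.40 (SE, adjusted p = 0.00978) and Cdc25b at 0.79 ± 0.26 (SE, adjusted p = 0.0407), and 1 was lower, beside 21.8%, Ccnb1 at -1.47 ± 0.41 (SE, adjusted p = 0.0227). Of 5 hedgehog genes tested, 5 rose in null hindbrain, beside 82.9% of all windows, and 2 were higher in hindbrain than in heart, beside 12.9%, Gli2 and Gli3, which transmit the hedgehog signal, at 0.53 ± 0.11 (SE, adjusted p = 0.00744) and 0.62 ± 0.19 (SE, adjusted p = 0.0328). The medians of hindbrain minus heart were -0.07, -0.76, 0.73 and 0.32 for the 4 lists and -0.17 for all windows.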

How the data were processed

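Peaks of 5fC were read for 20 pull-down libraries. The authors used trim_galore for trimming, Bowtie2 for alignment to NCBIM37 (mm9) and MACS within SeqMonk for peaks of each pull-down, and deposited peak positions in bases on a grid of 100. The files hold no reads or heights, so depth is unknown. Whether an input was used is not given in the sources used here. Windows were the 22367 protein-coding genes of the GENCODE annotation of NCBIM37 on 21 chromosomes with 10 kb on each side. Members and gene lists were chosen with earlier results of these data known.

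Bases under peaks were tested with limma 3.58.1 in R 4.3.3 (lmFit, eBayes with trend) on log2(bases + 500), with Benjamini-Hochberg adjustment over all windows with a peak in at least 2 libraries. Genotypes were fitted over 19 libraries without scaling (19309 windows) and tissues over the 9 null libraries after scaling to covered length (19057 windows). Null liver has 1 library and was assumed to vary like the other groups. Scripts were tested on simulated data. Python 3.11.15 with numpy 2.4.6 and matplotlib 3.10.9 served for counting and figures. Hindbrain litters were read from the sample titles. Titles of the other tissues name only the embryo, so the pairs a and b are not given by them. Deviations of libraries of the same litter correlated with r between -0.095 and 0.058 in hindbrain, -0.071 in heart and -0.086 in carcass. In heart and carcass the 2 deviations of a group mirror each other. The r is thus the same for both pairs, and the opposite pairing gives it with the other sign, 0.071 and 0.086. Fits with a litter or embryo block were alternatives.

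The members named individually are the 8 with the largest share in null hindbrain, the 6 largest called tissue differences in each direction, members with peaks in at least 5 WT libraries, those without peaks in null hindbrain or in any library, and those with overlapping windows, 26 in all. Other members named were chosen after their values were seen. The results for 1 member and 1 stretch are not reported here. Alternatives were gene bodies, 50 kb on each side, peaks of at least 600 bases, numbers of peaks, added bases of 100 or 2000, no filter, no trend, other scaling, hindbrain alone, each library left out and the liver library of pair b included.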

Additional observations from a re-analysis of the deposited data

Results flagged for a closer look

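Dixon's test was run on 46 groups of 4 hindbrain libraries. These were forkhead genes with a peak in more than 1 of the 4, and the mean over forkhead windows in each genotype. In 10 groups a library stood apart from the other 3. Chance gives about 1 in 20 groups for continuous values, and not for these, which lie on a grid of 100 bases with ties and zeros, so the number of such groups was not set against it. In null hindbrain the library of litter A stood high at Foxn1 (9.595% of the window), Foxo1 (11.6%), Foxp3 (1.97%) and Foxr1 (5.815%), that of litter O stood low at Foxb2 (0) and Foxj3 (2.47%), and that of litter Z stood high at Foxn3 (15%). In WT hindbrain litter Z stood low at Foxj1 (0) and Foxo1 (0), and litter Q stood high at Foxo6 (3.23%). The WT hindbrains of litters Z and A each had 1563 peaks and that of litter Q 21606, and litter A did not stand low at either gene.

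At Foxl2 the genotypes differed in opposite directions in 2 tissues. Null minus WT was 1.33 percentage points of the window in hindbrain and -2.22 in carcass, with every library of each tissue on the same side, and this difference between tissues was not tested.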

How the results depend on the processing

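Shares of all windows called under the same setting stand in brackets. With gene bodies only, 18, 16, 18 and 15 rose in null hindbrain, heart, carcass and liver (71.7, 76.1, 63.0 and 47.8%), 4 were higher in hindbrain than heart (12.6%), 1 higher in hindbrain than carcass (3.88%) and 2 higher in carcass than heart (8.42%). With 50 kb on each side, 41 rose in null heart (90.2%), 6 were higher in hindbrain than carcass (15.1%) and 11 higher in heart than carcass (35.7%). Scaled to covered length, 20, 12, 9 and 12 rose in null tissues (52.0, 43.4, 16.0 and 21.2%), and 5 fell in carcass (2.02%). Unscaled, 6 were higher in hindbrain than heart (3.13%) and 0 and 0 were higher and lower in hindbrain than carcass (0.163 and 0.766%; limma; 3 and 14 at an unadjusted p under 0.05). With the excluded liver library, 0 rose in null liver (0.00518%; limma; 3 at an unadjusted p under 0.05), 4 and 1 were higher and lower in hindbrain than heart (3.05 and 3.44%), 0 and 0 than carcass (0.362 and 0.184%; 4 and 1 unadjusted), and 1 and 1 in heart than carcass (2.41 and 0.813%). Peaks of at least 600 bases gave 7 higher in hindbrain than heart (10.3%) and 1 than carcass (2.47%). For hindbrain against carcass, added bases of 100 gave 4 and 2 (4.76 and 1.66%), added bases of 2000 gave 4 and 2 (3.80 and 1.68%), numbers of peaks gave 3 lower (1.36%), no filter 2 lower (1.14%) and scaling by the median window 3 lower (3.91%), and the last gave 8 higher in carcass than heart (13.7%).

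Leaving out each library in turn gave 33 to 34, 23 to 31, 24 to 29 and 21 to 23 members higher in null hindbrain, heart, carcass and liver (80.4 to 85.5, 75.35 to 90.6, 61.3 to 76.45 and 41.1 to 61.05%), 5 to 12 higher and 5 to 9 lower in hindbrain than heart (5.53 to 14.2 and 6.74 to 22.2%; both 5 without the null heart of pair b), 0 to 3 and 0 to 3 for hindbrain and carcass (0 to 5.40 and 0 to 2.14%; 0 without either carcass in both directions, where 5 and 5 higher and 4 and 3 lower had an unadjusted p under 0.05, and 0 higher without the hindbrain of litter Q, 7 unadjusted), and 3 to 6 and 1 to 7 for heart and carcass (8.11 to 25.8 and 2.84 to 10.3%). With litter as a random block 34, 26, 28 and 23 rose (82.4, 82.6, 72.8 and 56.2%), with litter as a fixed block in hindbrain alone 32 (91.0%), and with embryo as a block the tissue counts were 12 and 9 (12.8 and 21.7%), 2 and 1 (4.77 and 1.705%), and 6 and 6 (26.45 and 9.28%). The fixed block ended the hindbrain call of Foxi2, which was kept in hindbrain alone without a block, that of Foxh1 was lost in hindbrain alone with and without it, and the random block ended that of Foxi2 in carcass. Blocks added Foxc1 between heart and carcass and changed no other call.

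Fitted differences that turned under scaling to covered length were, in hindbrain, Foxn4 -0.62, Foxp1 -0.60, Foxj1 -1.12 and Foxp4 -1.69, in heart Foxj1 -0.25 and Foxo4 -0.47, and in carcass Foxn4 -0.66, Foxi3 -1.83, Foxj2 -0.13, Foxa3 -1.05, Foxo3 -0.051 and Foxq1 -0.95. With 50 kb, those of Foxl2 (carcass genotype) 1.35, Foxr1 -0.37, Foxl2 -0.16 and Foxc1 0.84 (hindbrain against heart), Foxe3 0.82 (against carcass), and Foxm1 0.77 and Foxf1a 0.056 (heart against carcass) turned, and with gene bodies Foxa3 -1.08 against heart. The causes were not tested. The number of calls kept under all alternatives was 12 of 34, 10 of 26, 9 of 30 and 0 of 23 for the genotypes. No tissue call was kept under all of them except that of Foxc2, whose values are a description.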
